A study of Homo sapiens with 4 samples.

Results

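The genes described here are the ZNF zinc finger genes that gave a clear signal in the gastric adenocarcinoma line MKN45, human epithelial cells, with and without lipopolysaccharide (LPS) of the stomach bacterium Helicobacter pylori. A gene was taken when its symbol was ZNF plus a number and an optional letter, when a probe set carried that symbol alone, and when its brightest probe set averaged 8 or more on the log2 scale over the 4 arrays. This held for 231 of 466 ZNF genes. Another 150 lay under 8 but past the level filter of the tests (6.06), and 85 lay under that filter. The arrays tested 16252 genes in all. Since the optional letter can be a P, 2 of the 231 are transcribed pseudogenes (ZNF252P and ZNF271P) and 229 are protein-coding in RefSeq.

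There were 2 untreated arrays, from cells given fresh medium, and 2 arrays from cells given 10 µg/ml H. pylori LPS, with RNA taken at 8 h in both groups. The labels name no genetic change in either group. The series text speaks of 2 independent experiments, so n = 2 for every group mean. MKN45 is 1 tumour line and stands for no other gastric cell.

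ZNF genes form the largest family of human transcription regulators. Most encode proteins with a row of C2H2 zinc fingers, small folds held by a zinc ion, each of which reads a few bases of DNA. Many carry a KRAB domain, which recruits the corepressor TRIM28 and through it histone methylation and heterochromatin, and a large share of the genes lie in clusters on chromosome 19. Others have left DNA regulation and act in ribosome assembly, RNA processing or mitosis. LPS is an outer membrane glycolipid that cells sense through Toll-like receptors, and the comparison asked which transcripts answer it.

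The arrays had nearly equal distributions, with medians of 7.004 to 7.034. Of 10 epithelial markers, 9 had a mean level of 8 or more, among them EPCAM and KRT18, and the summed epithelial level was 16.47 to 16.53 on the untreated and 16.52 to 16.54 on the LPS arrays (log2 of the sum). Of 7 measured leukocyte markers, 2 reached 8 (LYZ and CD53), and the defining marker PTPRC lay at 5.53, under the level filter. Their summed level was 12.90 to 12.98 on the untreated arrays and 12.83 on both LPS arrays. Of 8 fibroblast and endothelial markers, 1 reached 8, COL1A1, with sums of 10.58 to 10.69 and 10.70 to 10.73. The 4 chemokine genes known from earlier results of these data to answer LPS (CCL20, CXCL1, CXCL8 and CXCL3) were higher past the limma threshold, CCL20 by 7.61-fold.

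No ZNF gene of the 231 passed the threshold in either direction in the fit of the 4 arrays without a replicate block, but more of them lay lower than higher after LPS. In limma, with Benjamini-Hochberg adjustment over all 16252 genes, 0 members were lower and 0 higher at an adjusted p under 0.05, with 0.124 as the smallest adjusted p. The background was small too, with 0.0308% of all genes called lower and 0.0308% called higher. At an unadjusted p under 0.05, 37 members were lower (16.0%) and 5 higher (2.16%). Over all genes those shares were 9.63% and 4.68%, and over the other genes with a mean of 8 or more they were 13.8% and 3.76%. The median half-width of the members' 95% intervals was 0.17 on the log2 scale, so differences of this size were near the limit of 4 arrays.

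The median log2 fold change of the members, LPS minus untreated, was -0.06, with quartiles of -0.15 and 0.01 and the whole range from -0.42 to 0.26. Over all genes tested the median was -0.0047, and over the other 9179 genes with a mean of 8 or more it was -0.03. A difference below 0 was found for 169 of 231 members (73.2%), against 51.8% of all genes and 60.4% of those other genes. These shares depended on the scaling. After quantile normalization of the arrays 57.6% of the members and 46.2% of the other genes with a mean of 8 or more were below 0, with medians of -0.03 and 0.01, and after cyclic loess 59.3% and 47.0%, with medians of -0.03 and 0.0082. Both LPS arrays lay below both untreated arrays for 96 members (41.6%), where all genes gave 25.7% and the other genes with a mean of 8 or more 33.6%. The opposite arrangement held for 27 members (11.7%), against 19.7% and 15.9%. After quantile normalization those counts were 72 lower (31.2%) and 35 higher (15.2%), where all genes gave 21.0% and 25%.

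**Figure D1:**
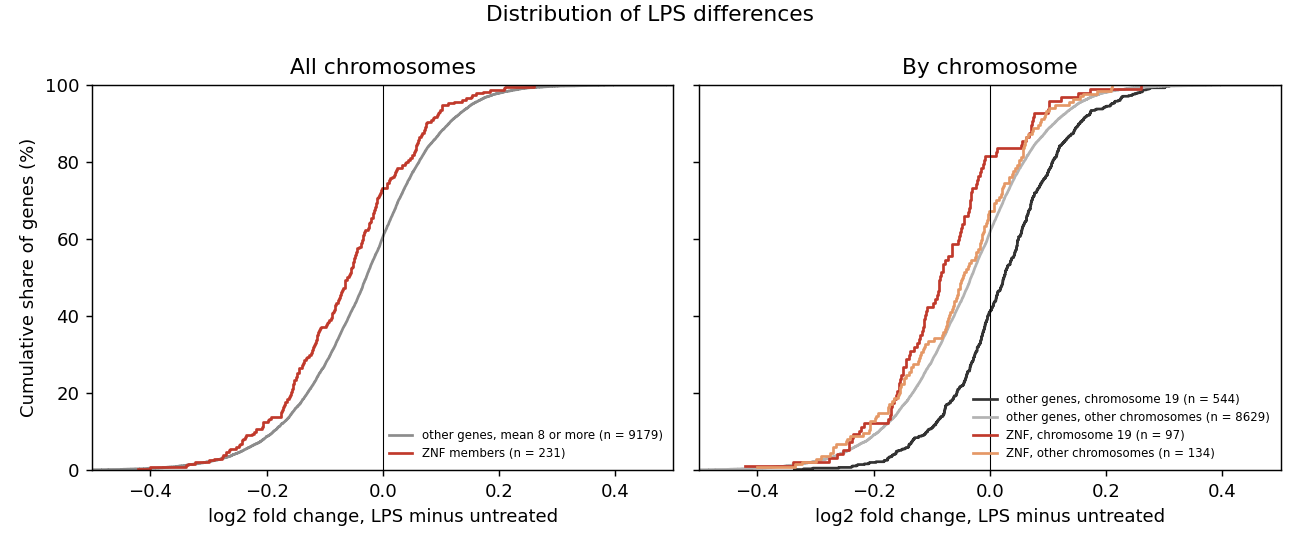
Cumulative share of genes (%) against log2 fold change (LPS minus untreated) for the 231 ZNF genes and for other genes with a mean level of 8 or more, over all chromosomes (left) and split by chromosome 19 (right). The axis covers -0.5 to 0.5, and a few other genes lie outside it. At 0 the ZNF curve has reached 73.2% and the curve of the other genes 60.4%.

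Since the other genes with a mean of 8 or more were more often lower than higher in the deposited scaling, though not after quantile normalization or cyclic loess, the members were set beside genes of the same level, in bins 1 log2 unit wide. Among the 127 members between 8 and 9 the median was -0.05, against -0.0028 for the other 2644 genes there. Between 9 and 10 the 76 members had a median of -0.09 and the other 2451 genes -0.04. Between 10 and 11 the medians were close, at -0.06 for 21 members and -0.05 for the other 1995 genes. The 5 members between 11 and 12 had a median of -0.09 against -0.04, and the 2 members above 12 had 0.02 against -0.03. Measured from the median of its own bin, the typical member lay at -0.05. That value ran from -0.05 to -0.03 over all alternatives tried, quantile normalization and cyclic loess included. In the deposited scaling it was -0.07 for the 97 members on chromosome 19 and -0.01 for the 134 on other chromosomes. The gap toward lower values was widest in the bins starting at 8 and 9, which hold most members, and it is small beside the interval of a typical gene.

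**Figure D2:**
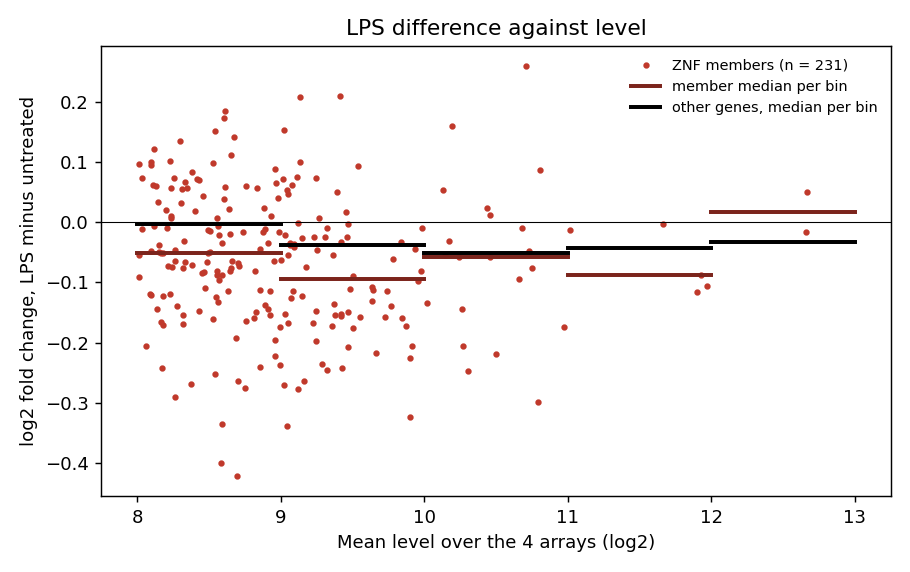
Log2 fold change (LPS minus untreated) of each of the 231 ZNF genes against its mean level over the 4 arrays (log2), with horizontal bars for the median of the members and of the other genes in each bin. The member bar lies below the other bar in the bins starting at 8, 9 and 11, nearly on it in the bin starting at 10, and above it in the bin starting at 12, which holds 2 members.

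The members' median lay below 0 in each of the pairings of an LPS with an untreated array. LPS replicate 1 minus untreated replicate 1 gave a member median of -0.08 and LPS replicate 2 minus untreated replicate 2 gave -0.03, while the other genes with a mean of 8 or more gave -0.06 and -0.0060. The untreated arrays differed from each other by -0.01 in the members (replicate 2 minus replicate 1) and the LPS arrays by 0.02. In the other genes with a mean of 8 or more the same differences were -0.03, with 60.2% of them below 0, and 0.02. Arrays of 1 group thus also differed in these genes. Spike-in controls differed too. Poly-A spike-ins, bacterial transcripts added before labelling, averaged 8.60 and 8.25 on the untreated and 7.98 and 7.92 on the LPS arrays, and in each of the 24 probe sets for them the LPS arrays were the lower ones. Hybridisation spike-ins, added later, averaged 10.29 and 10.10 against 9.89 and 10.19, so their groups overlapped, and in 2 of their 18 probe sets the LPS pair lay below the untreated pair. The 5′ minus 3′ difference of the ACTB control, a measure of RNA length, was -0.64 and -0.86 on the untreated and -0.39 and -0.63 on the LPS arrays. For GAPDH it was -0.02 and -0.07 against -0.0010 and -0.11. The part of these technical differences in the members' values was not tested. In bulk RNA, fewer expressing cells and less RNA per cell cannot be told apart.

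The mean level chose the members, so it is a description only. Just inside the limit were ZNF438 (8.01) and ZNF691 (8.01), and just outside ZNF449 (7.996) and ZNF783 (7.99). ZNF10, the gene of a prototype KRAB protein, and ZNF224, a KRAB repressor of aldolase A, also lay outside. ZNF224 read 8.00 and 8.25 without LPS and 7.61 and 7.29 with it, a log2 fold change of -0.67 (interval -0.94 to -0.40, limma adjusted p = 0.0921). It is named here although outside the limit, since it was known from earlier results and a gene that is lower with LPS can slip under a limit on the mean.

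The promoters of well-expressed ZNF genes often hold the core of an ETS factor site, and the sequences just upstream of the start of transcription are shown for 6 of the genes with the lowest or highest differences, to let their base composition and motifs be seen. They were picked from 14 such windows to include all 3 with an ETS match; of the other windows 1 holds an NRF1 match, 1 a cyclic AMP response element and 9 no match. Each is the 100 bases before the RefSeq start on GRCh38.p14, on the gene's strand, with motif matches in capitals. ZNF124 is at chr1:247172021-247172120 (minus strand), ZNF24 at chr18:35344421-35344520 (minus), ZNF324 at chr19:58466980-58467079 (plus), ZNF83 at chr19:52690497-52690596 (minus), ZNF420 at chr19:37078333-37078432 (plus) and ZNF593 at chr1:26169808-26169907 (plus).
ZNF124: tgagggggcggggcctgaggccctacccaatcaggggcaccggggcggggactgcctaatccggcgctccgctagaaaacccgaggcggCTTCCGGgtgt
ZNF24: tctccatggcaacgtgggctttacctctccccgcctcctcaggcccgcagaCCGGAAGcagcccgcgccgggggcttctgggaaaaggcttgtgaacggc
ZNF324: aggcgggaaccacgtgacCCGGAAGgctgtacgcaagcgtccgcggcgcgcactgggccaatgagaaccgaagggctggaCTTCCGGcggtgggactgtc
ZNF83: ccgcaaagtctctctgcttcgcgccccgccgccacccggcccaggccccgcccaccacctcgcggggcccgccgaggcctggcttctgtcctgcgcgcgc
ZNF420: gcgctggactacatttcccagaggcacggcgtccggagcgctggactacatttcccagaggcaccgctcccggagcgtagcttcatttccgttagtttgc
ZNF593: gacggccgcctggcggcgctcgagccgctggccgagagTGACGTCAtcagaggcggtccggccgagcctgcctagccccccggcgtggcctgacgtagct
The capitals mark CCGGAAG or its reverse complement CTTCCGG (ETS) in ZNF124, ZNF24 and ZNF324, the last with 2 matches, and TGACGTCA (the cyclic AMP response element) in ZNF593. ZNF83 and ZNF420 hold no match to the motifs searched in this window.

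Promoter windows of 300 bases were at hand for 199 members. CCGGAAG, searched on both strands, was in 87 of them (43.7%), against 20.9% of 7613 other genes with a mean of 8 or more and 10.7% of all 27305 promoters. The YY1 core AAGATGGC was in 11 (5.5%, against 6.2% and 3.0%), TGACGTCA in 11 (5.5%, against 3.5% and 2.0%), and ACTACAATT, part of the site read by ZNF143 itself, in 6 (3.0%, against 0.6% and 0.4%). GCATGCGC, part of the NRF1 site, was in 13 (6.5%, against 6.0% and 3.3%). TATAAA was in 6 (3.0%, against 5.3% and 12.0%). Of the NF-kB cores, GGACTTTCC was in 1 (0.5%, against 0.4% and 0.4%) and GGAATTTCC in 1 (0.5%, against 0.4% and 0.5%). Members with CCGGAAG had a median log2 fold change of -0.04 and those without it -0.06, a difference that was not tested. The G and C content of the members' windows had a median of 62.7%, against 65.7% in the other genes with a mean of 8 or more. These matches are descriptions of letters, not of bound sites.

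ZNF83 had the lowest difference. Its probe set read 8.72 and 9.10 on the untreated and 8.48 and 8.49 on the LPS arrays, a log2 fold change of -0.42 (interval -0.68 to -0.16, limma adjusted p = 0.189). The untreated arrays had an SD of 0.27 and the LPS arrays almost the same value. Its other probe set differed by -0.38, also with separated groups. ZNF124 read 8.88 and 8.69 against 8.29 and 8.47, a log2 fold change of -0.40 (interval -0.61 to -0.19, limma adjusted p = 0.156).

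ZNF420, a KRAB protein described as a restraint on p53, had the smallest p of the members. It read 9.23 and 9.20 on the untreated and 8.87 and 8.88 on the LPS arrays, and its log2 fold change of -0.34 (interval -0.50 to -0.18) missed the limma threshold at an adjusted p of 0.124. Replicates were tight in both groups, and its further probe set gave -0.32. ZNF33A read 8.75 and 8.77 against 8.38 and 8.47 (-0.34, limma adjusted p = 0.141), while its second probe set past the filter differed by only -0.07.

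ZNF24, a SCAN domain repressor of VEGF, read 11.03 and 10.85 on the untreated and 10.69 and 10.60 on the LPS arrays. The log2 fold change was -0.30 (interval -0.47 to -0.13, limma adjusted p = 0.172). Its 4 further probe sets past the filter disagreed, at -0.45, -0.03, 0.11 and 0.17. ZNF277 read 10.29 and 9.84 against 9.76 and 9.72, so most of its difference of -0.32 came from untreated replicate 1, yet its further probe sets past the filter were also lower, at -0.37 and -0.11.

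The remaining genes of the lowest 10 had differences of -0.29 to -0.27 and limma adjusted p-values of 0.181 to 0.312. ZNF397 read 8.35 and 8.46 against 8.13 and 8.10. ZNF627 read 9.39 and 9.12 against 9.09 and 8.86, and its second probe set differed by 0.13, the other way. ZNF292, a large protein mutated in neurodevelopmental disease, read 8.95 and 8.83 against 8.67 and 8.56, and ZNF827, which brings the NuRD remodelling complex to telomeres, 9.24 and 9.07 against 8.93 and 8.83. Further probe sets past the filter gave -0.45 and -0.01 for ZNF397, -0.16 for ZNF292 and -0.25 to 0.33 for ZNF827. In all 10 the LPS pair lay below the untreated pair on the probe set that represents the gene, but the 10 were chosen by that difference. The same arrangement held for 41.6% of all members and 25.7% of all genes.

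At the other end, 6 members had the highest differences, each with both LPS arrays above both untreated arrays and none past the threshold. These 6 were likewise chosen by their difference, and such separation held for 11.7% of all members and 19.7% of all genes. ZNF548 read 10.54 and 10.62 on the untreated and 10.94 and 10.75 on the LPS arrays (0.26, interval 0.08 to 0.43, limma adjusted p = 0.215), but its second probe set differed by -0.10. ZNF843 read 9.31 on both untreated arrays and 9.51 and 9.52 with LPS (0.21, limma adjusted p = 0.245) on a probe set of the _x_at type, and its other probe set gave -0.0078. ZNF589 read 8.94 and 9.12 against 9.17 and 9.30, and its further probe sets past the filter gave 0.17 and 0.06. ZNF324 read 8.47 and 8.57 against 8.58 and 8.80.

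The other 2 of these 6 belong to ZNF proteins that work on ribosomes. ZNF598, the ubiquitin ligase that marks collided ribosomes, read 8.48 and 8.56 on the untreated and 8.68 and 8.72 on the LPS arrays (0.19, interval 0.02 to 0.35, limma adjusted p = 0.320), and its other probe set differed by 0.02. ZNF593, the counterpart of a yeast factor of the large ribosomal subunit, read 10.10 and 10.13 against 10.23 and 10.32 (0.16, limma adjusted p = 0.338). ZNF622, also a factor of large subunit maturation, went the other way, from 11.11 and 11.01 to 10.87 and 10.91 (-0.17, limma adjusted p = 0.278). These genes thus had no common direction.

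**Figure D3:**
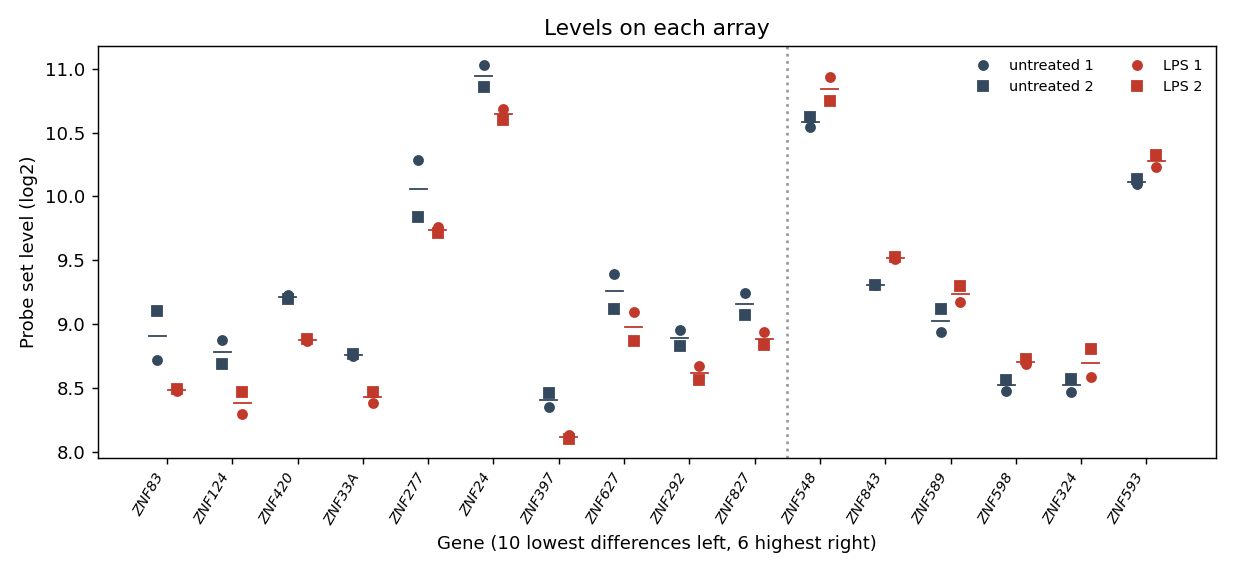
Probe set level (log2) on each of the 4 arrays for the 10 ZNF genes with the lowest and the 6 with the highest log2 fold change, untreated in blue and LPS in red, circles for replicate 1, squares for replicate 2 and bars for the mean of 2 arrays. In all 16 genes the arrays of the 2 groups do not overlap; the genes were chosen by the size of their difference.

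Of the genes of known function, ZNF91, ZNF638 and ZNF274 take part in silencing repeated DNA, and none of them passed. ZNF91, which binds SVA retrotransposons, read 8.82 and 8.51 on the untreated and 8.35 and 8.48 on the LPS arrays (-0.25, limma adjusted p = 0.331), and its further probe sets past the filter ran from -0.10 to 0.17. ZNF638, which works with the HUSH silencing complex on foreign DNA, read 10.47 and 10.39 against 10.24 and 10.12 (-0.25, limma adjusted p = 0.209), and its 4 further probe sets lay between -0.29 and -0.05. ZNF274, which brings the methyltransferase SETDB1 to other ZNF genes, read 9.99 and 9.85 against 9.75 and 9.77 (-0.16, limma adjusted p = 0.374), and its other probe set differed by -0.0092 with overlapping groups.

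None of the regulators of promoters in the same set passed either. ZNF143, an activator found at many promoters and chromatin loops, read 9.54 and 9.46 on the untreated and 9.34 on both LPS arrays (-0.15, limma adjusted p = 0.376). ZNF148, which binds GC-rich boxes, differed by -0.13 and ZNF281, a relative of it, by -0.14, each with separated groups. The 6 further probe sets of ZNF148 past the filter ran from -0.36, with separated groups, to 0.13, and those of ZNF281 gave -0.17 and -0.04. The breast cancer oncogene ZNF217 differed by -0.06 (interval -0.21 to 0.09), with overlapping groups. ZNF146, a protein of zinc fingers alone, differed by -0.09 (interval -0.22 to 0.04) and the imprinted gene ZNF331 by -0.01 (interval -0.20 to 0.17). ZNF395, known for induction by hypoxia, differed by -0.06 (interval -0.23 to 0.11).

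Members that act on RNA, mitosis or protein modification were also mixed. ZNF330, a nucleolar protein, read 10.68 and 10.54 against 10.42 and 10.36 (-0.22, limma adjusted p = 0.243), but its other probe set gave 0.16. ZNF326, of a complex that couples transcription to splicing, differed by -0.0094 and the SUMO ligase ZNF451 by -0.05, both with overlapping groups. Further probe sets past the filter gave -0.42, with separated groups, and 0.08 for ZNF326. For ZNF451 they gave -0.18 and 0.05, each with separated groups, and -0.13. ZNF207, a spindle protein that stabilises BUB3, read 12.74 and 12.55 on the untreated and 12.76 and 12.63 on the LPS arrays (0.05, interval -0.10 to 0.20). Its 7 further probe sets past the filter ran from -0.46 to -0.0030, so the representative probe set was the exception in sign. Of the other members with the highest probe set levels, which cannot be ranked as genes since each probe set has its own affinity, ZNF664 differed by -0.02 and ZNF770 by -0.11.

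Further probe sets, by the rule of choice dimmer than the representative one of their gene, were read on the same arrays. A shift shared by an array would reach them too, so they are not an independent check of the members' direction. The 231 genes had 537 probe sets, and 227 further ones past the filter belonged to 143 of the genes. Of these, 143 (63.0%) were below 0, against 52.9% of 14175 further probe sets of other genes, with medians of -0.05 and -0.0079. The further probe sets of members and of other genes were not matched by level. Both LPS arrays lay below both untreated arrays in 72 (31.7%) and above them in 39. That count is not given here for further probe sets of other genes. Over all genes tested the shares were 25.7% and 19.7%, and over the other genes with a mean of 8 or more 33.6% and 15.9%. The sign matched that of the representative probe set in 143 of 227, so single ZNF genes often disagreed between probe sets. None of the member probe sets passed in limma over 38229 probe sets (smallest adjusted p = 0.170). Outside the named genes, chosen after their values were seen, the lowest further probe set was one of ZNF652 (9.56 and 8.76 against 8.74 and 8.04, a difference of -0.77 with wide replicates) and the highest one of ZNF609 (7.60 and 7.64 against 7.95 and 8.04, 0.38).

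**Figure D4:**
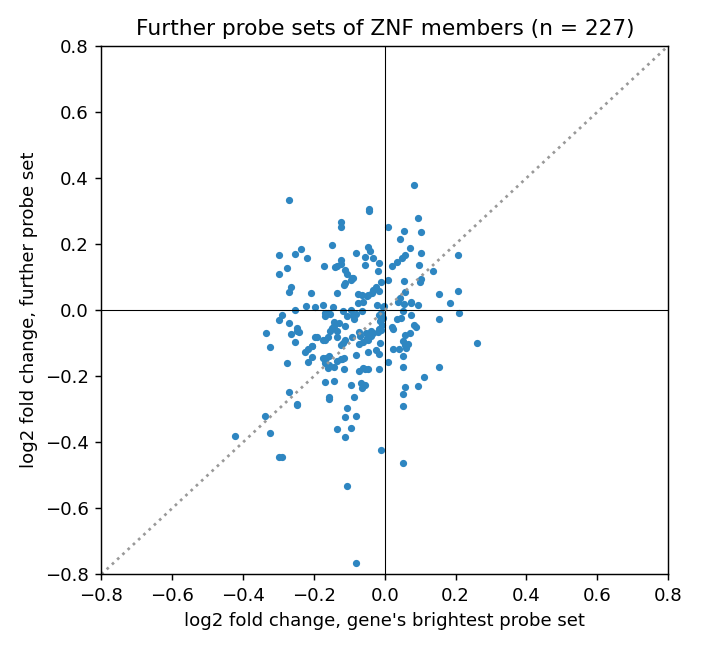
Log2 fold change (LPS minus untreated) of each of 227 further probe sets past the level filter against that of the brightest probe set of the same ZNF gene; the dotted line marks equal values. The points scatter widely around that line, 143 of 227 share the sign of the brightest probe set, and 143 lie below 0.

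Shared sequence limits single genes, since finger regions are alike between ZNF genes. Of the 231 representative probe sets, 41 were of the _s_at and 30 of the _x_at type, which can bind several transcripts. Their medians were -0.06 and -0.07, beside -0.06 for the 157 plain _at probe sets, so values below 0 prevailed in each of these types, and the other 3 members, of the _a_at type, had a median of 0.07.

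Chromosome 19 held 97 members, followed by chromosome 16 with 19 and chromosome 7 with 16. Of the 97, 79 (81.4%) were below 0, with a median of -0.09, 47 with the LPS pair below the untreated pair and 6 with both above. Among the 544 other genes of chromosome 19 with a mean of 8 or more, 99 had the LPS pair below and 135 had it above. Of the 134 members elsewhere, 90 (67.2%) were below 0, with a median of -0.05, 49 with separated lower and 21 with separated higher arrays. Among the 8629 other genes elsewhere with a mean of 8 or more, 2985 had the LPS pair below and 1319 had it above. The members elsewhere thus separated about as often as those other genes. Other genes of chromosome 19 with a mean of 8 or more had a median of 0.02, and of them 41.0% were below 0, while the other genes of the remaining chromosomes had -0.03 and 61.7%. Measured from genes of the same level over all chromosomes, the ZNF genes of chromosome 19 lay at -0.07 and its other genes at 0.05, while the ZNF genes elsewhere lay at -0.01 and the other genes elsewhere at -0.0031. The values that follow are medians not matched by level, which were -0.09 and 0.02 in the deposited scaling. Between ZNF and other genes of chromosome 19, their gap kept its direction after quantile normalization (-0.05 and 0.06), cyclic loess (-0.05 and 0.06) and median centring (-0.10 and 0.01). The gap also did so with any 1 array left out, although without LPS replicate 2 the other genes of chromosome 19 stood at -0.0079 and the ZNF genes at -0.10. Neighbouring genes are not independent, and the difference between these groups was not tested.

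Runs of members with no other protein-coding gene between them mostly lay below 0, as did 73.2% of all members and 81.4% of those on chromosome 19. All of ZNF234, ZNF226 and ZNF227, next to each other on chromosome 19, were lower with separated groups, at -0.24, -0.11 and -0.17. Such separation held for 41.6% of all members, 47 of the 97 on chromosome 19 and 25.7% of all genes. Further probe sets past the filter gave -0.07 for ZNF234 and -0.32 for ZNF226, with separated groups. Another of ZNF226 gave 0.12 and that of ZNF227 -0.15, with overlapping groups. ZNF234 read 8.30 and 8.29 on the untreated and 8.08 and 8.02 on the LPS arrays. ZNF227 read 9.08 and 9.09 against 8.91 and 8.90. In the run ZNF329, ZNF274, ZNF544 and ZNF8, all 4 lay below 0 (-0.16 to -0.03), and in the run of 5 from ZNF776 to ZNF587, 4 of 5 did (-0.23 to 0.07). On chromosome 7, the 4 members from ZNF680 to ZNF273 had a median of -0.0065 (-0.20 to 0.04). Over all chromosomes, 76 members stood beside another member, with a median of -0.09 and 60 below 0. The other 155 did not, with a median of -0.05 and 109 below 0. Most runs lay on chromosome 19, so standing beside a member and lying on that chromosome were not told apart.

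The ZNF genes under 8 and the related zinc finger families held no gene past the threshold. The 150 ZNF genes under 8 had a median of -0.02 with 90 below 0, but measured from the median of genes at their own level they lay at -0.05, as the members did. The 40 ZBTB genes had a median of -0.01, the 24 ZSCAN and ZKSCAN genes 0.0043 and the 16 ZFP genes -0.0083, the last 2 medians turning sign between scalings. The 14 KLF genes, regulators with 3 fingers that bind GC boxes, had a median of -0.07. Measured from genes of the same level, the medians were -0.02 for ZBTB, 0.0051 for ZSCAN and ZKSCAN, -0.02 for ZFP and -0.02 for KLF. In each of these sets 0 genes passed in limma over all genes tested. An unadjusted limma p under 0.05 was reached by 16 lower and 4 higher genes among the 150 ZNF genes under 8. The counts were 4 and 0 for ZBTB and 3 and 1 for ZSCAN and ZKSCAN. For ZFP and for KLF they were 2 and 1 each. By the same cut, 9.63% of all 16252 genes went down and 4.68% went up. Differences between the families were not tested.

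The corepressor machinery that KRAB proteins recruit had 20 measured genes, of which 0 passed in limma over all genes tested. At an unadjusted p under 0.05 in limma, 1 was lower and 2 were higher, where all genes gave 9.63% lower and 4.68% higher. The median of the 20 genes was -0.05, and -0.03 when measured from genes of the same level. CBX5, the heterochromatin protein HP1 alpha, had the smallest p, with means of 9.49 without and 9.09 with LPS (-0.41, limma adjusted p = 0.108). TRIM28, the hub of this complex, differed by 0.16 (12.30 to 12.45, limma adjusted p = 0.307) and the DNA methyltransferase DNMT1 by 0.15 (limma adjusted p = 0.293). RBBP7, a histone chaperone of the NuRD complex, differed by -0.11 (limma adjusted p = 0.362). The methyltransferase SETDB1 differed by 0.10 with overlapping groups.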

How the data were processed

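The deposited values are log2 probe set levels of 4 Affymetrix arrays, as judged from the values. The tools named per the submitters' processing notes are RMA and MAS5; which one made the values, and the versions, are not given in the sources used here. Arrays of equal rank differed by at most 0.0977, so a shift of all transcripts in 1 direction would be hidden.

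The 62 control probe sets were left out, which left 54613. Symbols came from the platform annotation (41091 probe sets with 1 symbol, 1801 with several, 11721 with none). Each gene was its probe set with the highest mean, and genes under the 30 percentile of probe set means (6.06) were left out, which left 16252. All 231 ZNF genes matched RefSeq GRCh38.p14 by Entrez identifier, used for names, biotypes, chromosomes and neighbours. Promoters came from RefSeq, GRCh38.p14.

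The comparison of groups used limma 3.58.1 under R 4.3.3 (lmFit, eBayes with trend, two-sided, 95% intervals, Benjamini-Hochberg over all genes), tested on simulated data. The threshold was an adjusted p under 0.05. Medians of gene sets carry no test. Named genes were the 10 lowest and 6 highest differences, the 3 brightest, the 2 on each side of 8 and a set of genes of known function. Members and lists were chosen with earlier results of these data known. Grouping by KRAB domain was not analysed here, since no protein sequences were at hand. Results were recomputed under 16 alternative settings, and under 1 more chosen after seeing the data.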

Additional observations from a re-analysis of the deposited data

How the results depend on the processing

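No member passed in limma under any alternative except the replicate block, where 1 member was lower past the threshold, ZNF24 (-0.30, adjusted p = 0.0494). The labels do not say that a replicate number marks a shared experiment, and deviations of equally numbered arrays correlated at 0.103 across genes. Over all genes tested 10 passed, and 165 with the block, 99 after median centring, 28 after quantile normalization, 38 after cyclic loess, 18 with robust estimation, 4 without the trend, 5 without the filter and 4 with the variance moderated over all probe sets, an alternative chosen after seeing the data. With 1 array left out, 4 to 19 genes passed, with the remaining array of that group taken to have the same spread as the rest.

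The members' median was -0.027 after quantile normalization and -0.034 after cyclic loess, and -0.080 to -0.049 with 1 array left out. At a level minimum of 9, 47 of 104 members were lower (45.2%) and 10 higher (9.6%) with separated groups, where all genes gave 25.7% and 19.7%. Other genes of similar level lay closer to the members. In the bin starting at 9, 37 of 76 members and 844 of the other 2451 genes were lower, and 6 and 366 were higher. In the bin starting at 10, 8 of 21 members and 791 of the other 1995 genes were lower, and 4 and 276 were higher. Of all 231 members, 116 to 138 were lower (50.2% to 59.7%) and 40 to 54 higher with 1 array left out, where fewer arrays separate more easily; all genes gave 36.4% to 42.2% lower and 29.9% to 37.7% higher. The distance from genes of the same level stayed below 0 throughout.

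Some named genes changed sign. Among the genes with the lowest and highest differences, ZNF627 (-0.28) turned to 0.13 and ZNF843 (0.21) to -0.0078 without _x_at and _s_at probe sets. ZNF207 was at -0.14 with the mean of its probe sets, at -0.46 with probe sets not of the _x_at or _s_at type, and at -0.046 to 0.15 with 1 array left out. After quantile normalization ZNF664 was at 0.0015, ZNF326 at 0.035, ZNF331 at 0.0024 and ZNF451 at 0.0056. After cyclic loess ZNF664 was at 0.019 and ZNF326 at 0.038. With 1 array left out ZNF326 ran from -0.067 to 0.048, ZNF331 from -0.090 to 0.066 and ZNF451 from -0.097 to 0.0014. The cause was not tested. The number of arrays limits what can be called.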
